A study of Mus musculus with 6 samples.

Results

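The collagen family was read as the protein-coding genes of the deposited table whose symbol consists of Col, a type number, the letter a and a chain number. That rule, which uses no measured value, gave 44 genes among 54532 in the table, of which 22046 were protein-coding. They were read in 3 classes, with 11 fibrillar genes, 6 basement membrane genes of type IV and 27 genes of other types. RNA with poly-A tails from mouse distal colon was sequenced in 6 libraries after 7 days of drinking water with 3% dextran sulfate sodium (DSS), which damages the lining of the colon and brings on colitis. KO 1, KO 2 and KO 3 are labelled as homozygous knockout of Itgbl1, and WT 1, WT 2 and WT 3 as wild type. Both groups drank DSS, so no library shows colon without injury. Strain, age and sex of the animals, the design of the knockout allele and whether each library is a separate animal are not stated in the labels, and p-values therefore reflect only how these libraries spread.

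Collagens are proteins of the extracellular matrix in which 3 chains wind around each other. Each chain repeats the triplet glycine, X, Y, because only glycine fits in the centre of the helix. Fibrillar collagens form the banded fibres of the submucosa, type IV collagens form the sheet-like network of basement membranes under epithelium and around vessels, muscle and nerve, and the remaining types link, anchor or decorate these structures. In the gut wall most fibrillar collagen is made by fibroblasts and smooth muscle, and collagen synthesis is part of wound repair.

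In the coding sequences the length of the uninterrupted glycine repeat sets the fibrillar class apart, and the number of runs sets type IV apart from the other types. All 44 genes were found in GENCODE M21 for GRCm38 with the same chromosome, start and end as in the deposited table. A run was counted where at least 5 triplets follow each other with glycine in the first place. In fibrillar genes the longest run had a median of 338 triplets, with Col24a1 at 216 and Col27a1 at 217 as the shortest and Col3a1 at 344 as the longest. Type IV genes had a median longest run of 43.5 triplets and 22 to 27 separate runs, and the other types a median of 45 triplets and 2 to 21 runs. Every one of the 44 genes held at least 2 runs. The sequences were found by these same symbols and runs were counted in no other genes, so this is no separate check of the family.

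**Figure D1:**
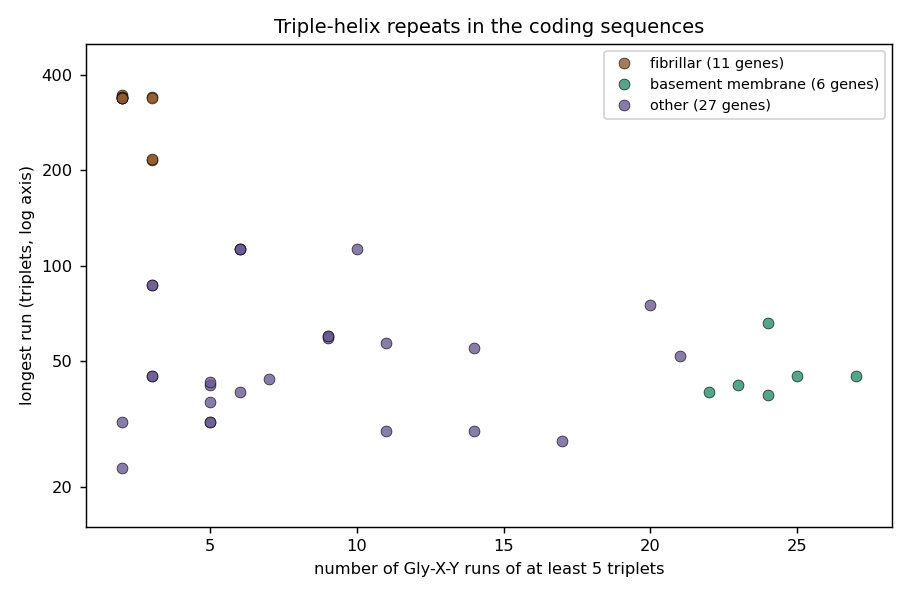
Longest uninterrupted Gly-X-Y run (vertical, in triplets, log axis) against the number of such runs (horizontal) in the coding sequence of 44 collagen genes, 1 point per gene, coloured by class. Fibrillar genes sit at 216 triplets or more with 2 or 3 runs, and type IV genes at 39 to 66 triplets with 22 to 27 runs.

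These coding stretches of 24 codons show what an unbroken run and a break look like. Fibrillar stretches start at the beginning of the longest run, and the others were placed across its end. The place chosen thus fixed whether a break is seen. The longest runs of Col4a1, Col4a2 and Col16a1, at 40, 66 and 52 triplets, also hold stretches of this length without a break. Each printed stretch is spliced from 2 exons, is read 5′ to 3′ on the coding strand, and has the glycine codons of the repeat in capitals. In the fibrillar genes Col3a1 (chromosome 1, 45323762 to 45325395, plus strand) and Col5a3 (chromosome 9, 20801095 to 20801260, minus strand) glycine returns after every X and Y without a break. In Col4a1 (chromosome 8, 11244516 to 11245075, minus strand), Col4a2 (chromosome 8, 11434771 to 11437657, plus strand) and the fibril-associated Col16a1 (chromosome 4, 130086508 to 130088648, plus strand) the repeat is broken within the stretch.
Col3a1: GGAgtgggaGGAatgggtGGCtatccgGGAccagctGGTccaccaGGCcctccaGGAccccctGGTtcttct
Col5a3: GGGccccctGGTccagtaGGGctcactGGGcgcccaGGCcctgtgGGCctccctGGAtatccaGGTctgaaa
Col4a1: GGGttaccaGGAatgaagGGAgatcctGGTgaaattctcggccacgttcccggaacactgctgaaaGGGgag
Col4a2: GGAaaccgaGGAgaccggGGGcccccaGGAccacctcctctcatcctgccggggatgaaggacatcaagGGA
Col16a1: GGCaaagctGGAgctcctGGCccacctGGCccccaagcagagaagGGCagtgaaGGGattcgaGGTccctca

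Total counts were 16844543, 17465473 and 13326970 in KO 1 to KO 3, and 18321389, 16800399 and 17270693 in WT 1 to WT 3. Levels are given as CPM, the usual library-scaled count, with library sizes adjusted by TMM factors. Itgbl1 itself had 12, 4 and 10 reads in KO 1 to KO 3 and 19, 6 and 5 reads in WT 1 to WT 3, with a ratio of 0.878 and a 95% interval of 0.25 to 3.08 (edgeR quasi-likelihood test, adjusted p = 0.9). The counts therefore do not show a loss of Itgbl1 under the knockout label. Directions below are those of libraries labelled KO relative to libraries labelled WT. KO 3 stood apart from the other libraries in its mitochondrially encoded share, 12.82% of counts against 3.529 to 4.879% in the other 5. Its colon epithelial markers summed to 80.28 CPM, where KO 1 had 1183 CPM, KO 2 had 9713 CPM and the WT libraries had 18230 to 24110 CPM. In bulk tissue a change in the number of cells of a type and a change in RNA per cell cannot be told apart.

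Collagen transcripts made up a larger share of the RNA in each library labelled KO than in any WT library. They took 1.385%, 0.6009% and 0.4413% of counts in KO 1 to KO 3, against 0.2855%, 0.2082% and 0.4107% in WT 1 to WT 3. The share in KO 1 was far above the rest, while KO 3 exceeded WT 3 only narrowly. Of the 44 genes, 38 had enough reads to be tested, and 34 of these had a positive log2 ratio of KO over WT. Their median log2 ratio was 1.04, while that of all 16861 tested genes was 0.06.

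No collagen passed the adjusted threshold, in a comparison where 0% of all tested genes did. The smallest adjusted p of a collagen was 0.0955, for Col7a1 (edgeR quasi-likelihood test, Benjamini-Hochberg over 16861 genes). At an unadjusted p under 0.05, 12 of the 38 were higher and 0 lower in the libraries labelled KO, where 11.8% of all tested genes were higher and 12.3% lower. Col8a1 lay just inside that limit at a rounded p of 0.05, and Col23a1 just outside at 0.059. DESeq2, the other count test, called 9 collagens higher and 0 lower after adjustment, namely Col4a1, Col4a2, Col5a2, Col5a3, Col7a1, Col11a1, Col16a1, Col18a1 and Col20a1. Among all genes it called 4.06% higher and 6.50% lower. In 12 collagens all 3 KO libraries lay above all 3 WT libraries, and in 0 below, where 15.0% of all tested genes lay above and 17.3% below.

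**Figure D2:**
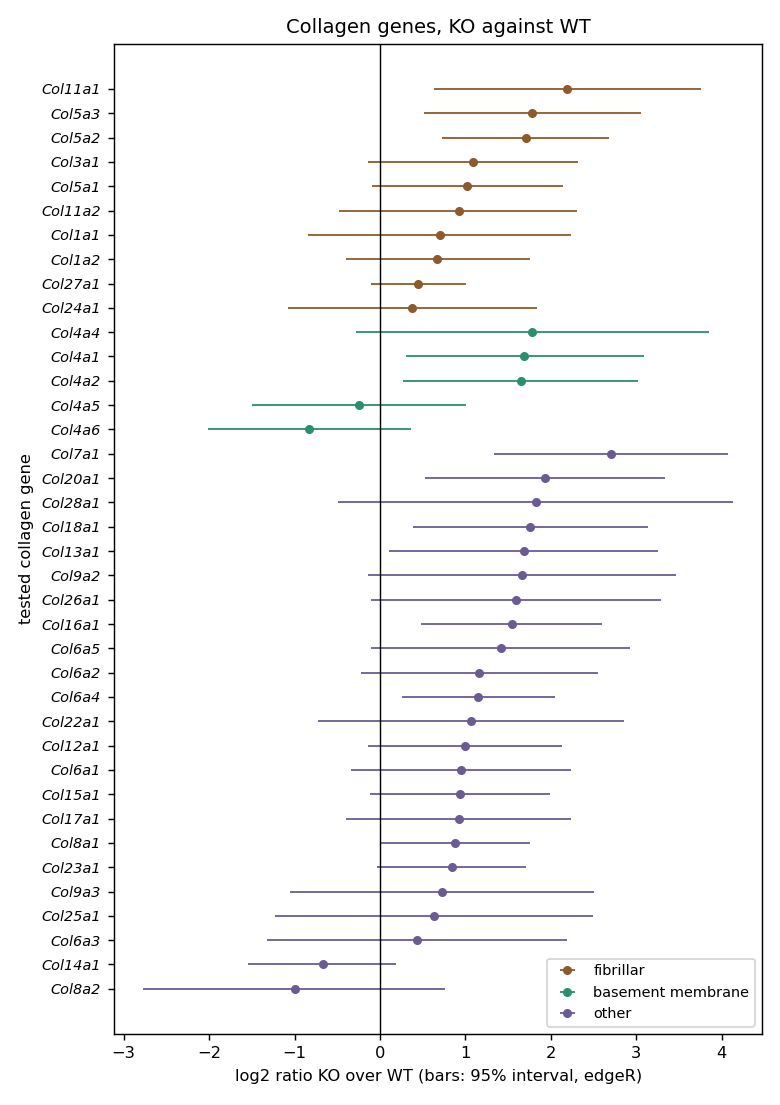
Log2 ratio of KO over WT (horizontal) of the 38 tested collagen genes, 1 row per gene, ordered within each class, with bars for the 95% interval from edgeR. Points lie right of 0 for 34 genes, from 0.38 for Col24a1 to 2.70 for Col7a1, and left of it for Col4a5, Col4a6, Col14a1 and Col8a2.

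The libraries labelled KO differed in which collagens were high. KO 1 lay above every WT library in 32 of the 38 tested collagens and below every WT library in 2, where 38.7% and 34.4% of all tested genes did so. KO 2 lay above in 23 and below in 4, where 32.2% and 33.8% of all tested genes did so. KO 3 lay above in 23 and below in 7, where 38.8% and 41.3% of all tested genes did so. Relative to the WT mean, the median fibrillar collagen stood 1.63, 0.82 and 0.23 higher on the log2 scale in KO 1 to KO 3. The median beaded filament collagen stood at 1.68, 1.14 and -0.41, and the median fibril-associated collagen at 1.74, 0.15 and 1.69. By these medians fibrillar and type VI genes were highest in KO 1 and KO 2, and fibril-associated genes in KO 1 and KO 3.

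**Figure D3:**
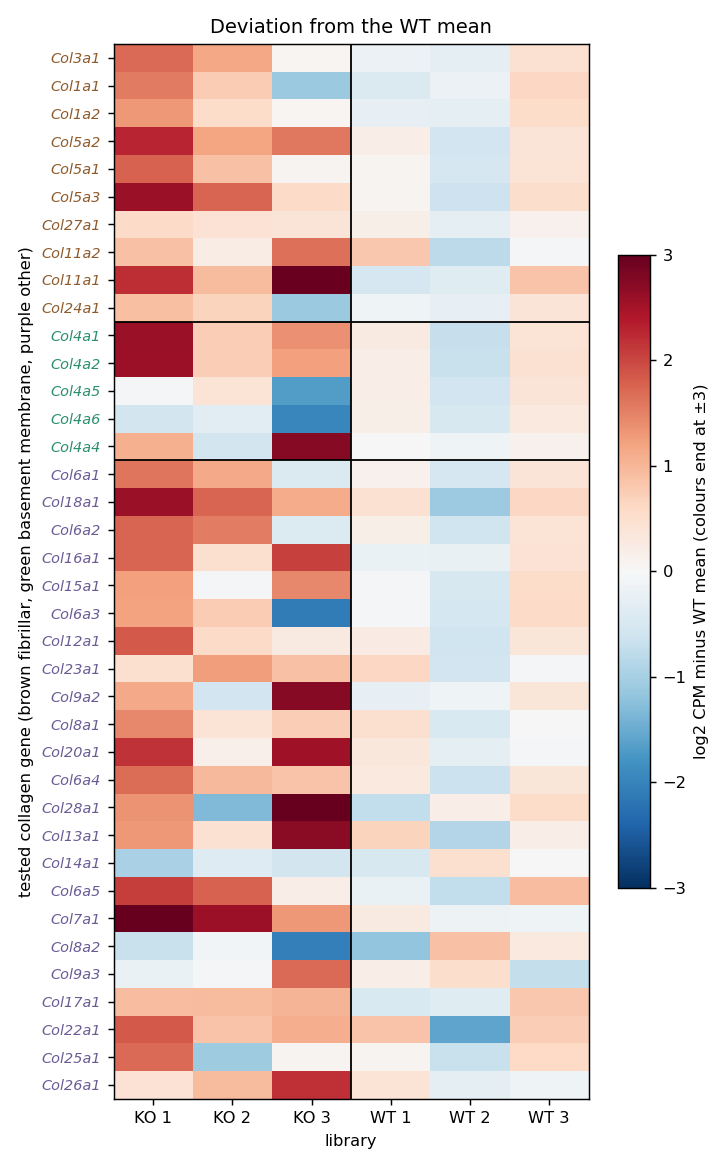
Log2 CPM minus the WT mean for 38 tested collagen genes (rows, by class and within it by level per kilobase) in 6 libraries (columns, KO left of WT), with colours ending at ±3. The KO 1 column is red in nearly all rows, and the KO 3 column is bluest at Col1a1, Col24a1, Col4a5, Col4a6, Col6a3 and Col8a2.

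Among fibrillar collagens, the main chains of types I and III were above the WT range in KO 1 and not in KO 3, and in KO 2 Col3a1 and Col1a1 were above it and Col1a2 just inside. Col3a1, the homotrimer chain of the fine fibres in distensible tissue, had 2124, 1465 and 685 CPM in KO 1 to KO 3, against 573, 537.7 and 896.2 in WT 1 to WT 3. Col1a1, which supplies the alpha-1 chains of type I collagen, had 594.4, 340.9 and 92.48 CPM in KO 1 to KO 3, against 148.5, 179.5 and 306.8 in WT 1 to WT 3. The lowest Col1a1 level of all 6 libraries was that of KO 3, and the groups overlapped for both genes. Col1a2, the partner chain of Col1a1, had 826.9, 485.2 and 344.7 CPM in KO 1 to KO 3, against 280.6, 270.5 and 486.9 in WT 1 to WT 3. The log2 ratios were 1.09 ± 0.52 for Col3a1, 0.70 ± 0.65 for Col1a1 and 0.67 ± 0.46 for Col1a2 (SE), with adjusted p of 0.253, 0.539 and 0.397 (edgeR). Without KO 1, the log2 ratio of Col1a1 was 0.06.

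The type V chains, which nucleate type I fibrils and set their diameter, divided within this class. Col5a2 (ENSMUSG00000026042, chromosome 1, 45374321 to 45503282) had 394.6, 184 and 243.8 CPM in KO 1 to KO 3, against 92.17, 53.79 and 106 in WT 1 to WT 3. Its groups did not overlap, and its log2 ratio was 1.71 ± 0.41 (SE, edgeR adjusted p = 0.101). Col5a3 had 118, 65.66 and 29.06 CPM in KO 1 to KO 3, against 20.86, 12.72 and 28.25 in WT 1 to WT 3, a log2 ratio of 1.78 ± 0.54 (SE, adjusted p = 0.128). KO 3 exceeded the highest WT library by under 1 CPM for Col5a3, whereas for Col5a2 every library labelled KO stood clear. Col5a1, the chain shared by most type V molecules, had 340.6, 183.2 and 106 CPM in KO 1 to KO 3, against 106.6, 70.75 and 132.5 in WT 1 to WT 3.

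Type XI chains, known from cartilage and able to join type V chains elsewhere, were low. Col11a1 had 8.548, 3.489 and 14.45 CPM in KO 1 to KO 3, against 1.189, 1.329 and 3.243 in WT 1 to WT 3, a log2 ratio of 2.19 ± 0.66 (SE, edgeR adjusted p = 0.129) and of 2.79 without WT 3. KO 2 stood just above WT 3 and KO 3 was the highest. Of 6 cartilage markers only Comp and Hapln1 had enough reads to be tested, Acan, Matn1, Matn3 and Cnmd were at 0 in at least 1 library, and the list summed to 3.903 to 7.383 CPM in the libraries labelled KO and 3.982 to 5.569 CPM in WT libraries. Col27a1, a fibrillar chain with a shortened helix, was at 33.65 to 38.59 CPM in the libraries labelled KO and at 21.01 to 29.06 CPM in WT libraries, without overlap and with a log2 ratio of 0.45. Col11a2 ranged from 2.803 to 7.694 CPM under the KO label and from 1.329 to 4.279 CPM under the WT label, and Col24a1 from 0.7771 to 3.508 CPM and from 1.519 to 2.418 CPM under the same labels. Col2a1, the main chain of cartilage fibrils, was not tested, with at most 0.2331 CPM in KO 3 and 0.06328 CPM in WT 2.

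**Figure D4:**
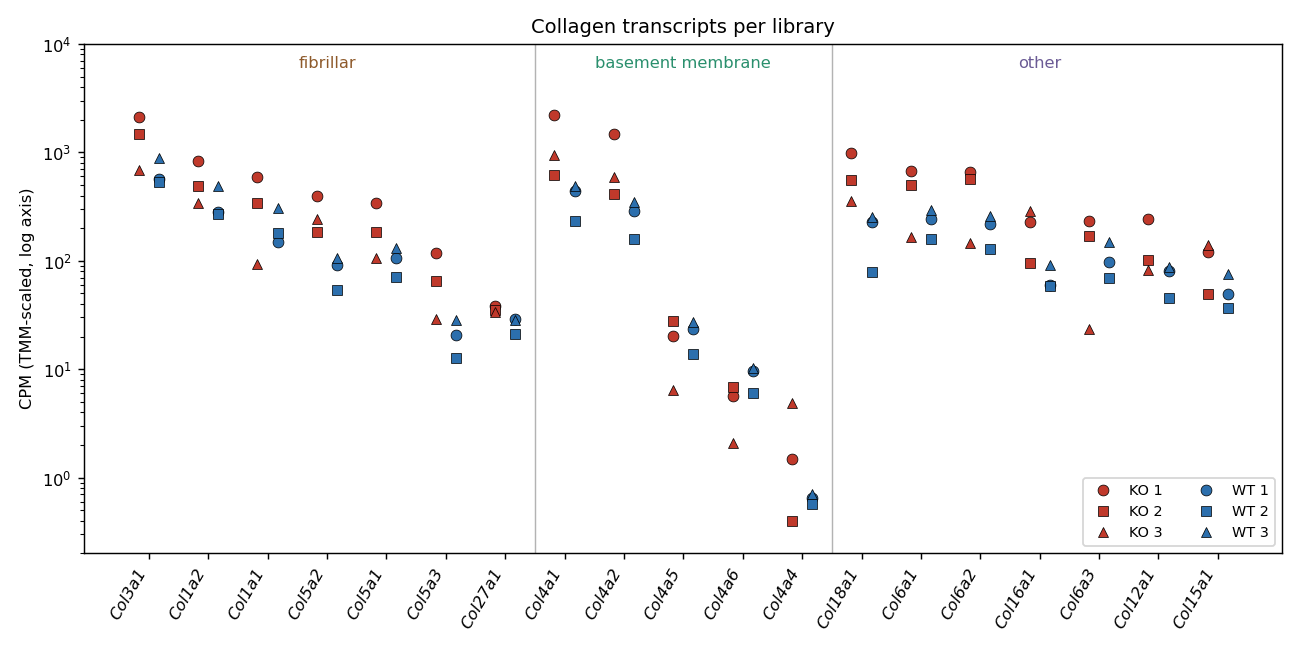
TMM-scaled CPM (vertical, log axis) in each of 6 libraries for the most abundant tested fibrillar (7), basement membrane (5) and other (7) collagens, with KO libraries in red left of WT libraries in blue. All red points lie above all blue points for Col5a2, Col5a3, Col27a1, Col4a1, Col4a2, Col18a1 and Col16a1, and the red triangle of KO 3 lies lowest for Col1a1, Col6a3, Col4a5 and Col4a6.

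Among basement membrane collagens, the ubiquitous pair Col4a1 and Col4a2 was higher in each library labelled KO than in any WT library, and none of the minor chains was. Col4a1 (ENSMUSG00000031502, chromosome 8, 11198423 to 11312826) had 2209, 612.5 and 954.3 CPM in KO 1 to KO 3, against 444.3, 231.2 and 490.9 in WT 1 to WT 3. Col4a2 (ENSMUSG00000031503, chromosome 8, 11312805 to 11449287), which is transcribed away from it, had 1477, 416.5 and 589.9 CPM in KO 1 to KO 3, against 288.2, 158.9 and 345 in WT 1 to WT 3. Both pairs of groups stayed apart, and both genes had KO 1 highest, then KO 3, then KO 2. The log2 ratios were 1.69 ± 0.60 and 1.65 ± 0.58 (SE), with unadjusted p of 0.0239 and 0.0249 and adjusted p of 0.156 and 0.159 (edgeR). Without KO 1 they were 1.01 and 0.93. The gene models share 22 bases at their starts, where a read could be assigned to either gene.

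Col4a5 and Col4a6, neighbours on the X chromosome whose products occur in basement membranes of epithelium and smooth muscle, had negative log2 ratios. Col4a5 had 20.31, 27.8 and 6.372 CPM in KO 1 to KO 3, against 23.65, 13.92 and 27.01 in WT 1 to WT 3. Col4a6 had 5.682, 6.806 and 2.098 CPM in KO 1 to KO 3, against 9.568, 6.075 and 10.32 in WT 1 to WT 3. Both were lowest in KO 3, the groups overlapped, and the log2 ratios of -0.24 ± 0.54 and -0.83 ± 0.50 (SE) had adjusted p of 0.805 and 0.353 (edgeR). Without KO 3 the log2 ratio of Col4a5 turned positive, at 0.14. Smooth muscle markers, 9 of which were tested, summed to 3313, 5484 and 1598 CPM in KO 1 to KO 3, against 3697, 4729 and 3289 in WT 1 to WT 3, and all 9 were below every WT library in KO 3. The part of smooth muscle in the low KO 3 values was not tested. Col4a4, known from the glomerular basement membrane, had 1.482, 0.4004 and 4.896 CPM in KO 1 to KO 3, against 0.6537, 0.5695 and 0.7077 in WT 1 to WT 3, and its partner Col4a3 had too few reads to be tested.

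Among the other classes, the multiplexin Col18a1 and the fibril-associated Col16a1 lay, like the type IV pair, above the WT range in every library labelled KO. Col18a1, a basement membrane proteoglycan whose end fragment is endostatin, had 985.4, 551.4 and 357.5 CPM in KO 1 to KO 3, against 226.2, 78.09 and 253.9 in WT 1 to WT 3. Its log2 ratio was 1.76 ± 0.58 (SE, edgeR adjusted p = 0.143), and no library labelled KO fell into the WT range. Col15a1, the other multiplexin, had 120.5, 49.65 and 139.4 CPM in KO 1 to KO 3, against 48.97, 36.64 and 76.01 in WT 1 to WT 3, with KO 2 inside the WT range.

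Fibril-associated collagens sit on fibril surfaces and connect them to other matrix. Col16a1 (ENSMUSG00000040690, chromosome 4, 130047840 to 130099283) had 229, 94.77 and 285.8 CPM in KO 1 to KO 3, against 59.37, 58.47 and 91.94 in WT 1 to WT 3, a log2 ratio of 1.54 ± 0.45 (SE, edgeR adjusted p = 0.122). Col20a1 had 24.9, 6.063 and 32.48 CPM in KO 1 to KO 3, against 6.894, 4.493 and 5.189 in WT 1 to WT 3, a log2 ratio of 1.93 ± 0.60 (SE, adjusted p = 0.131). Both genes were high in KO 1 and KO 3 and close to the WT libraries in KO 2. Col12a1, a linker of type I fibrils, had 243.7, 101.8 and 82.06 CPM in KO 1 to KO 3, against 81.36, 45.12 and 88.16 in WT 1 to WT 3. Col14a1, its relative, was the lower one at 5.929, 8.98 and 7.927 CPM in KO 1 to KO 3, against 8.439, 16.33 and 11.68 in WT 1 to WT 3, a log2 ratio of -0.67 ± 0.37 (SE, adjusted p = 0.303). Col9a2 had 11.86, 3.546 and 36.45 CPM in KO 1 to KO 3, against 4.517, 4.873 and 6.959 in WT 1 to WT 3. Of the rest, Col9a3 and Col22a1 had log2 ratios of 0.73 and 1.07 at 0.6423 to 3.212 CPM under the KO label and 0.1898 to 1.545 CPM under the WT label, and Col9a1 and Col19a1 were not tested.

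Type VI collagen, the beaded microfilament around cells, was like Col1a1 and Col3a1 high in KO 1 and KO 2 and not in KO 3, except for Col6a4. Col6a1 had 679.8, 495.1 and 166.1 CPM in KO 1 to KO 3, against 243.6, 159 and 293.7 in WT 1 to WT 3. Col6a2 had 654.9, 562.7 and 146.3 CPM in KO 1 to KO 3, against 220.7, 128.6 and 260.5 in WT 1 to WT 3. For both genes KO 1 and KO 2 lay above the WT range and KO 3 inside it, with log2 ratios of 0.95 ± 0.55 and 1.16 ± 0.59 (SE, edgeR adjusted p of 0.327 and 0.277). Col6a3, the large chain that completes the molecule, had 233, 171.1 and 23.39 CPM in KO 1 to KO 3, against 97.4, 70.11 and 149.1 in WT 1 to WT 3, and KO 3 was below every WT library. Col6a4, an alternative to Col6a3 in the molecule, had 39.58, 24.31 and 22.38 CPM in KO 1 to KO 3, against 15.04, 7.784 and 15.92 in WT 1 to WT 3, a log2 ratio of 1.15 ± 0.38 (SE, adjusted p = 0.142). It alone of the 5 tested type VI genes stayed above the WT range in KO 3. Col6a5 had 13.64, 10.87 and 3.575 CPM in KO 1 to KO 3, against 2.734, 1.835 and 6.015 in WT 1 to WT 3, and Col6a6 was not tested.

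Col7a1, the chain of the anchoring fibrils that fasten epithelial basement membrane to the stroma, had the smallest p of the family. The gene (ENSMUSG00000025650, chromosome 9, 108953586 to 108984875) had 16.26, 9.38 and 3.886 CPM in KO 1 to KO 3, against 1.842, 1.329 and 1.356 in WT 1 to WT 3. Every library labelled KO lay above the WT range, and the log2 ratio was 2.70 ± 0.58 (SE, unadjusted p = 0.00221, edgeR adjusted p = 0.0955), a ratio of 6.51 with a 95% interval of 2.51 to 16.8. Markers of squamous epithelium, which also carries anchoring fibrils, summed to 2.372, 3.375 and 0.3886 CPM in KO 1 to KO 3, against 3.387, 3.86 and 3.479 in WT 1 to WT 3. Each of these 6 markers was at 0 in at least 1 library.

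Transmembrane, short-chain and remaining collagens were at low levels. Col28a1, a chain found around peripheral nerve, and Col13a1 were highest in KO 3. Col28a1 had 12.3, 1.83 and 40.33 CPM in KO 1 to KO 3, against 2.793, 5.569 and 7.018 in WT 1 to WT 3, and Col13a1 had 11.76, 6.406 and 31.16 CPM in KO 1 to KO 3, against 7.488, 2.468 and 5.425 in WT 1 to WT 3. Neither gene exceeded the WT range in KO 2. Col8a1, of the hexagonal networks around vessels, had 41.55, 20.36 and 25.72 CPM in KO 1 to KO 3, against 21.28, 11.2 and 15.1 in WT 1 to WT 3, whereas its partner Col8a2 had a log2 ratio of -1.0 ± 0.75 (SE, edgeR adjusted p = 0.441). Col8a2 had 1.433, 2.173 and 0.4663 CPM in KO 1 to KO 3, against 0.9509, 4.43 and 2.89 in WT 1 to WT 3. Col17a1, the hemidesmosome collagen, was at 1.729 to 1.865 CPM in the libraries labelled KO and 0.5943 to 1.592 CPM in WT libraries, and Col26a1 at 0.4941 to 1.943 CPM and 0.2531 to 0.4754 CPM under the same labels, both without overlap. Col23a1 and Col25a1 had log2 ratios of 0.84 and 0.63 with overlapping groups, and Col10a1, of hypertrophic cartilage, was not tested.

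The make-up of the collagen RNA was compared per kilobase of the deposited gene length, since longer transcripts collect more reads. Type IV genes supplied 34.96%, 19.52% and 36.18% of the summed collagen CPM per kilobase in KO 1 to KO 3, against 26.89%, 20.78% and 23.28% in WT 1 to WT 3. Fibrillar genes supplied 31.87%, 38.31% and 26.25% in KO 1 to KO 3, against 32.89%, 43.71% and 39.87% in WT 1 to WT 3. In both shares KO 2 resembled the WT libraries, and KO 1 and KO 3 had type IV ahead of the fibrillar class. That order depended on the length scaling. In unscaled sums fibrillar genes were ahead of type IV in KO 1, at 4453 against 3714 CPM, and level with it in KO 3, at 1558 against 1560 CPM. Type VI genes supplied 17.34%, 25.89% and 9.993% in KO 1 to KO 3, against 23.01%, 21.07% and 21.40% in WT 1 to WT 3. Col4a1 had a mean of 168.6 CPM per kilobase under the KO label and 52.09 under the WT label, and Col3a1 had 145.1 and 68.15 under the same labels, so Col3a1 was ahead in the WT mean. By library, Col3a1 was the larger share in KO 2, WT 2 and WT 3 and Col4a1 in KO 1, KO 3 and WT 1.

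**Figure D5:**
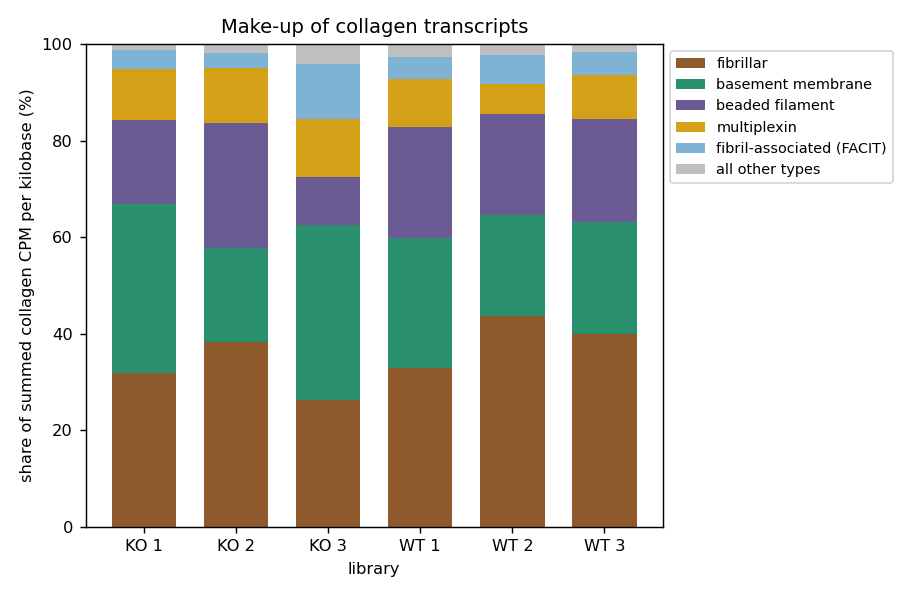
Share of the summed collagen CPM per kilobase (vertical, %) taken by 5 collagen classes and all other types together, 1 bar per library with KO left of WT. The type IV segment takes 34.96% in KO 1 and 36.18% in KO 3 and never exceeds 26.89% elsewhere. The fibril-associated segment is widest in KO 3 at 11.28%.

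Ratios between chains ask whether chains kept step. The chains compared are partners in the same molecule, except in Col3a1 over Col1a1, which compares types III and I. Col4a1 over Col4a2, per kilobase, was 1.33, 1.30 and 1.43 in KO 1 to KO 3, against 1.37, 1.29 and 1.26 in WT 1 to WT 3. That pair kept nearly the same ratio in all 6 libraries. Col1a1 over Col1a2 was 1.36, 1.33 and 0.508 in KO 1 to KO 3, against 1.00, 1.26 and 1.19 in WT 1 to WT 3, so KO 3 lay below the WT range and KO 1 and KO 2 above it. Col5a1 over Col5a2 was 0.975, 1.12 and 0.491 in KO 1 to KO 3, against 1.31, 1.49 and 1.41 in WT 1 to WT 3, and Col6a3 over Col6a1 was 0.126, 0.127 and 0.0516 in KO 1 to KO 3, against 0.146, 0.161 and 0.186 in WT 1 to WT 3. In these ratios every library labelled KO lay below every WT library, with a two-sided exact permutation p of 0.1 each, the smallest that 3 libraries against 3 allow, and 0.3 after adjustment over 6 ratios. Col3a1 over Col1a1 was 2.39, 2.87 and 4.95 in KO 1 to KO 3, against 2.58, 2.00 and 1.95 in WT 1 to WT 3 (exact permutation p = 0.2, adjusted 0.4). Col6a1 over Col6a2 lay at 1.67 to 2.16 under the KO label and 2.10 to 2.35 under the WT label, with an exact permutation p of 0.3.

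Genes that build, cross-link and degrade collagen were read as 7 lists, none of whose members passed the adjusted threshold (edgeR). At an unadjusted p under 0.05, the limit of every count that follows, 11.8% of all tested genes were higher and 12.3% lower. Of the 18 genes of chain modification and folding, 8 were higher and 0 lower, with a median log2 ratio of 0.79. The prolyl 4-hydroxylase subunit P4ha2 had 24.51, 19.22 and 19.82 CPM in KO 1 to KO 3, against 10.16, 6.961 and 8.964 in WT 1 to WT 3, and Crtap and Fkbp10, of the prolyl 3-hydroxylation complex and the chaperones, had log2 ratios of 1.13 and 1.54. These 3 genes lay above the WT range in every library labelled KO, KO 3 included. P4hb and Mia3, named after their values were seen, lay below the WT range in every library labelled KO, with log2 ratios of -0.26 and -0.33 and adjusted p of 0.634 and 0.391 (edgeR). Among 9 tested genes of propeptide processing 4 were higher and 1 lower, with Bmp1, the C-proteinase, at a log2 ratio of 1.69, Adamts2, the N-proteinase, at 1.10 and Mep1a, a protease of the colonocyte surface, at -4.90.

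Among 5 cross-linking genes 3 were higher and 0 lower at an unadjusted p under 0.05, where 11.8% and 12.3% of all tested genes were, with a median log2 ratio of 1.64. Lox, the lysyl oxidase that starts cross-links, had 258.1, 52.62 and 240.5 CPM in KO 1 to KO 3, against 16.82, 8.29 and 25.12 in WT 1 to WT 3, and Loxl1 and Loxl2 had log2 ratios of 1.64 and 1.66. Lox thus stood highest in KO 1 and KO 3, as Col16a1 did. Of 8 fibril proteoglycan genes 3 were higher and 1 lower, with Dcn at a log2 ratio of 2.50, Lum at 1.15 and Ogn at -1.73. Of 6 tested collagen-degrading genes all 6 were higher, with a median log2 ratio of 2.43, led by Mmp9 at 3.94, Mmp8 at 4.28 and Mmp13 at 2.97. Neutrophil markers, the cell type that stores Mmp8 and Mmp9, summed to 1214, 1197 and 7174 CPM in KO 1 to KO 3, against 425.1, 9.112 and 50.24 in WT 1 to WT 3, and their part in these values was not tested.

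Among 16 partners of type IV collagen in basement membranes 7 were higher and 0 lower at an unadjusted p under 0.05, with a median log2 ratio of 0.96, where 11.8% of all tested genes were higher and 12.3% lower. The linker Nid1 had 358.2, 160.1 and 464 CPM in KO 1 to KO 3, against 121.5, 60.81 and 138.6 in WT 1 to WT 3, and the laminin chains Lama5 and Lamb1 had log2 ratios of 1.22 and 1.24. Of 10 collagen receptors 2 were higher and 1 lower, near those shares, and the median log2 ratio was 0.08. Ddr2, the discoidin receptor of mesenchymal cells, had 369, 167.2 and 177 CPM in KO 1 to KO 3, against 102.8, 69.04 and 117.9 in WT 1 to WT 3. Its epithelial relative Ddr1 had 73.72, 51.53 and 30.23 CPM in KO 1 to KO 3, against 82.72, 168.6 and 133.9 in WT 1 to WT 3. The groups stayed apart for both receptors, in opposite directions, and Itga1 had a log2 ratio of 1.20.

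Marker sums of mesenchymal, vascular and nerve-associated cells are given beside these values. Smooth muscle markers, described above, had 0 of 9 higher and 0 lower at an unadjusted p under 0.05 and sums that overlapped. Of all tested genes 11.8% were higher at that limit, which holds for each marker count here. Fibroblast markers summed to 1408, 1314 and 848.5 CPM in KO 1 to KO 3, against 832.4, 509.1 and 806 in WT 1 to WT 3, with 5 of 10 higher. Pericyte markers summed to 2447, 1153 and 981.1 CPM in KO 1 to KO 3, against 598.3, 305.8 and 685.5 in WT 1 to WT 3, with 4 of 6 higher. Endothelial markers summed to 904.9, 482.3 and 1692 CPM in KO 1 to KO 3, against 548.9, 297.4 and 530.1 in WT 1 to WT 3, with 6 of 9 higher. Pericyte and fibroblast sums were highest in KO 1, and endothelial sums in KO 3. Enteric glia markers summed to 234.6, 162.6 and 748.5 CPM in KO 1 to KO 3, against 75.3, 34.36 and 79.61 in WT 1 to WT 3, with 6 of 6 higher. Their highest sum was that of KO 3, as for the endothelial markers. Mesothelial markers summed to 6.683 to 21.51 CPM under the KO label and 5.072 to 13.99 CPM under the WT label, macrophage markers to 276.6 to 899.6 CPM and 427.0 to 909.1 CPM, and adipocyte markers to 178.6 to 842.8 CPM and 101.7 to 252.0 CPM under the same labels.

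Set against the fibroblast sum, summed collagen was 8.19, 4.57 and 5.39 in KO 1 to KO 3, against 3.73, 4.35 and 5.19 in WT 1 to WT 3. For the type IV class alone that ratio was 2.64, 0.81 and 1.84 in KO 1 to KO 3, against 0.921, 0.807 and 1.08 in WT 1 to WT 3. In both ratios KO 1 and KO 3 stayed above the WT range, KO 3 narrowly for collagen as a whole, and KO 2 lay inside it. Set against the pericyte sum, type IV was 1.52, 0.923 and 1.59 in KO 1 to KO 3, against 1.28, 1.34 and 1.28 in WT 1 to WT 3, so KO 2 lay below the WT range. Collagen as a whole over the pericyte sum was 4.71, 5.2 and 4.66 in KO 1 to KO 3, against 5.2, 7.24 and 6.1 in WT 1 to WT 3, so no library labelled KO exceeded the WT range. Over the smooth muscle sum it was 3.48, 1.09 and 2.86, against 0.841, 0.468 and 1.27, with KO 1 and KO 3 above the WT range. Over the endothelial sum it was 12.7, 12.4 and 2.7, against 5.66, 7.44 and 7.89. Type IV over the endothelial sum was 4.1, 2.21 and 0.922, against 1.4, 1.38 and 1.65. In both endothelial ratios KO 1 and KO 2 lay above the WT range and KO 3 below it. Fibrillar collagen over the fibroblast sum was 3.16, 2.11 and 1.84 in KO 1 to KO 3, against 1.51, 2.26 and 2.47 in WT 1 to WT 3, with KO 1 alone above the WT range. How far numbers of these cells account for the collagen values was not tested.

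Upstream windows of 250 bases were found for 35 of the 44 genes in a RefSeq table for GRCm38.p6, as 38 windows. The CCAAT box, bound by a factor known to act on several collagen promoters, was searched as CCAAT on both strands and occurred in 34.2% of collagen windows and 33.8% of all 32851 windows. The GC box GGGCGG, searched likewise, occurred in 57.9% and 32.7% of these windows, and the TATA box TATAAA in 13.2% and 12.4%. The largest gap was that of the GC box, and no test of it was made. The GC box did not divide the genes by whether their groups overlapped. Col1a2 and Col25a1, with overlap, have windows with GC boxes, and Col4a1 and Col17a1, without overlap, have none. Of the 13 collagen windows with a CCAAT box, those of Col1a2, Col4a5 and Col25a1 belong to genes whose groups overlapped. The others belong to genes whose KO libraries all lay above the WT libraries, as 15.0% of all tested genes did. Of the genes of that kind with a window, Col27a1 alone has no CCAAT box in any. Col9a1, also of that kind, had too few reads to be tested. Its CCAAT box is in a window 17593 bases from the deposited gene start, and its window at that start has none. The windows of Col4a1, Col4a2 and Col6a4 are exonic over all 250 bases. How genes outside the family divide by this box was not counted. This division was seen with the values known, and no test of it was made. Windows of 3 genes that hold no annotated exon are shown as examples, 5′ to 3′ on the gene's strand with these motifs in capitals. They belong to Col7a1 (chr9:108953336-108953585, plus strand), the collagen with the smallest p, Col5a3 (chr9:20815068-20815317, minus strand), and Col3a1 (chr1:45311288-45311537, plus strand), the fibrillar gene with the highest level per kilobase. Those of Col7a1 and Col5a3 hold a CCAAT box and at least 1 GC box, and that of Col3a1 holds a TATAAA and neither of the others, which describes these letters and not factor binding.
Col7a1: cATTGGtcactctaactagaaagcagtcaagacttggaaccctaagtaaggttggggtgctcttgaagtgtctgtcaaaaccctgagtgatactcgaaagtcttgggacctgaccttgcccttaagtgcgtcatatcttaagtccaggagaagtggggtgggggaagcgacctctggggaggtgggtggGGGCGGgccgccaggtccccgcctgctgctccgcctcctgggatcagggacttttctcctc
Col5a3: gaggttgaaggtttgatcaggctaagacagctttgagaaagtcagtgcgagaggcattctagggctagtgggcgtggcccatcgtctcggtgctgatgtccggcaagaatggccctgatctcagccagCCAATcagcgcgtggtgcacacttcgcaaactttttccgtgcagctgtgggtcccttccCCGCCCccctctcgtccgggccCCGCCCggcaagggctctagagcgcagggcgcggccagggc
Col3a1: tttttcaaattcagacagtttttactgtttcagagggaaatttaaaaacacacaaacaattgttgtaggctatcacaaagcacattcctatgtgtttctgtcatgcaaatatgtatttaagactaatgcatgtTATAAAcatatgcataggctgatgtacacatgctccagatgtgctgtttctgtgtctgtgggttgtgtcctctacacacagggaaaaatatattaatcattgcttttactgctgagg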

How the data were processed

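Collagen transcripts were measured in 3 libraries labelled KO and 3 labelled WT. Values are raw counts of reads per gene, which the authors made from trimmed reads, per the labels' protocols. The submitters' processing notes name DESeq2, featureCounts 1.5.0-p3, HISAT2 2.0.5 and StringTie 1.3.3b, with GRCm38 and mm10. No source used here gives the strand setting or the handling of multi-mapping reads, and reads where genes overlap cannot be told apart.

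The analysis used edgeR 4.0.16 in R 4.3.3, with filterByExpr (minimum count 10, minimum total 15), TMM scaling and a quasi-likelihood F test (robust, no covariate), adjusted by Benjamini-Hochberg over 16861 genes at 0.05. The test was checked on simulated data. Log2 deviations use a prior count of 2. Chain ratios went through exact permutation tests, two-sided, in SciPy 1.17.1. Levels between genes were compared per kilobase of the deposited gene length. Alternatives were DESeq2 1.42.0, limma 3.58.1 (voom), other scalings, filters and gene sets, libraries left out and a replicate block. Between replicate libraries chi-square over its degrees of freedom was 50.7 to 253, so none was counted as a copy.

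The members, classes and lists were chosen with earlier results of these data known. Values per library were to be given for Itgbl1, the 4 members of each class with the highest level per kilobase and up to 8 tested members per direction with the smallest p, with other members named to account for the family and up to 3 genes per pathway list. Helix runs were counted in GENCODE M21 coding sequences, and upstream windows came from RefSeq.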

Additional observations from a re-analysis of the deposited data

How the results depend on the processing

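Beside the reported fit, 16 settings were run. The collagens called after adjustment numbered 9 with DESeq2, 2 with voom and quality weights (Col5a2 and Col7a1) and 0 to 4 with a library left out, the 4 being Col11a1, Col16a1, Col20a1 and Col5a2 without KO 2, and 0 in each of the other settings. The collagens higher at an unadjusted p under 0.05, 12 as reported, numbered 20 with upper-quartile scaling, which moved the median log2 ratio of all genes to 0.21, against 0.06 with TMM. They numbered 8 to 17 with a library left out and 8 without KO 3 and WT 2 together, and 0 collagens were lower in any setting. The median log2 ratio of tested collagens stayed between 0.70 and 1.33 in all settings. That of the 5 tested type IV genes, 1.65 as reported, was 0.69 with at least 10 reads in every library (where fewer genes were tested), 1.03 with voom, 0.94 with voom and quality weights, 0.43 without KO 3 and WT 2 together, and 0.51 to 1.91 with a library left out, lowest without KO 3. The fibrillar median ranged from 0.60 without KO 1 to 1.21 without KO 3. Without KO 3 the log2 ratio of Col4a5 became 0.14 (range -0.74 to 0.14 with a library left out), and the difference in the ratio of Col1a1 over Col1a2, -0.0842 as reported, became 0.195 (range -0.231 to 0.195). Where no cause is given for a change, the cause was not tested. Deviations of same-numbered libraries correlated at -0.201, 0.0866 and -0.0753, and KO 1 correlated best with WT 3, at 0.34. These values give no sign that the numbers pair the libraries, but with 3 libraries per group they cannot exclude it. With the replicate block 0 collagens were called, 13 were higher at an unadjusted p under 0.05, and the medians were 1.01 for all tested collagens, 0.94 for fibrillar, 1.23 for type IV and 1.07 for other types. The 6 collagens outside the reported fit had at most 2.098 CPM, and DESeq2 gave an adjusted p to Col4a3 (0.692) and Col19a1 (0.346) alone among them.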
